A study of Mus musculus with 24 samples.

Results

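The comparison set Ocy454 cells, an immortalised mouse osteocytic line, given both agents for 2 h against the same cells given 1 agent for 2 h, and so asked what the added agent changed within that time. The library titles carry the letters LD for both agents and D for the single agent, while the deposited tables carry the codes LD and L. The series title names lysophosphatidic acid (LPA) and 1,25-dihydroxyvitamin D (1,25D), so by title the single agent is 1,25D and the added one LPA, and by file code the reverse. Below, the single-agent cells are the libraries labelled 1,25D (title letter D, file code L), and the added agent is the one labelled LPA (title letter L, file code D). All libraries with those titles and codes were taken, 3 with both agents and 3 labelled 1,25D, which makes 6 of the 24 libraries of the series.

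The study treated Ocy454 cells with vehicle, the agent labelled LPA, the agent labelled 1,25D or both, for 2 h or 8 h, with 3 libraries in each of the 8 groups. Bulk RNA was sequenced, and the tables give estimated counts per transcript. The labels give no doses. They also do not say whether replicate libraries were grown as separate cultures. The p-values here therefore weigh each difference only against the spread between replicate libraries, taken over all 8 groups, and that spread may be technical.

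LPA is a signalling lipid of serum and tissues that acts on a family of G protein-coupled receptors. These receptors drive the ERK kinase cascade and calcium signals, and a burst of immediate early genes such as those of the EGR and FOS families follows within an hour or so. 1,25D is the hormonal form of vitamin D. It binds the vitamin D receptor, a nuclear receptor that pairs with a retinoid X receptor on DNA. In bone cells its targets include Cyp24a1, which encodes the enzyme that inactivates the hormone, Spp1, Enpp1 and Enpp3, and it raises FGF23, the hormone with which osteocytes lower blood phosphate.

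Markers of these pathways went against the titles of the single treatments. Cyp24a1 at 8 h averaged 0.897 ± 0.174 CPM (counts scaled to a common library total) with both agents, 0.979 ± 0.334 CPM in libraries labelled LPA, 0.0101 ± 0.0176 CPM in libraries labelled 1,25D and 0.00985 ± 0.0171 CPM with vehicle (SD, n = 3 each). Egr2 at 2 h averaged 65.2 ± 2.45 CPM with both agents, 11.3 ± 0.469 CPM in libraries labelled LPA, 141 ± 14.3 CPM in libraries labelled 1,25D and 17.6 ± 0.870 CPM with vehicle (SD, n = 3 each). The vitamin D marker was thus high in the libraries labelled LPA, and the immediate early gene was high in the libraries labelled 1,25D, the arrangement that the file codes give. Which of the 2 sets of names is right cannot be told from the labels, so every single treatment is called by its label. Under the file codes, with which both markers went, the agent labelled LPA would be 1,25D and the agent labelled 1,25D would be LPA.

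The 6 libraries held 33.5 to 33.8 M counts each over 21276 to 23260 detected genes, with 10.3 to 11.7% of counts on mitochondrially encoded genes. Of the osteocyte markers, Pdpn, Cd44, Gja1 and Fbln7 were plainly present, at means of 64.3, 140, 118 and 40.0 TPM with both agents and 68.2, 131, 99.0 and 42.8 TPM in the libraries labelled 1,25D. Markers of mature, embedded osteocytes were at or near the floor. Mepe had 0 counts in all 6 libraries, and Sost had 0 with both agents and at most 4 labelled 1,25D. Dmp1 averaged 0.980 TPM with both agents and 1.28 TPM in the libraries labelled 1,25D. The 21 osteoblast and bone matrix genes summed to 9508.6 to 11041.5 CPM with both agents and 8649.7 to 9942.5 CPM labelled 1,25D. Of these, Col1a1 averaged 635 TPM with both agents and 634 TPM labelled 1,25D, and Alpl 0.983 and 0.681 TPM. Markers of 5 other cell types were low. For 10 adipocyte genes the sums were 11.03 to 14.7 CPM with both agents and 10.8 to 12.6 CPM labelled 1,25D. For 10 endothelial genes the sums were 2.58 to 3.76 CPM with both agents and 3.005 to 3.10 CPM labelled 1,25D. For 11 skeletal muscle genes they were 1.67 to 3.17 CPM with both agents and 2.48 to 3.37 CPM labelled 1,25D. Macrophage and blood cell genes, 11 in number, summed to 39.9 to 42.5 CPM with both agents and 41.1 to 42.3 CPM labelled 1,25D. Of these 5 lists, only the 10 chondrocyte genes had sums that did not overlap, 14.6 to 19.4 CPM with both agents and 19.6 to 25.9 CPM labelled 1,25D, and their part in the results was not tested. In bulk RNA, fewer cells making a transcript and less transcript per cell cannot be told apart.

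Few genes passed the test for a change when the agent labelled LPA was added for 2 h. Of 16424 genes tested with edgeR's quasi-likelihood test, 126 passed a Benjamini-Hochberg adjusted p of 0.05 (0.767%), 100 of them higher with both agents (0.609%) and 26 lower (0.158%). The rises were the larger changes. At least 2-fold higher were 24 genes (0.146%), and at least 2-fold lower were 2 (0.0122%). The median log2 change was 0.61 over the genes that rose and -0.45 over those that fell, against 0.0049 over all genes tested. The 3 libraries of 1 group lay wholly above or below the 3 of the other for all 126 genes, a separation that 14.5% of all genes tested also had. The smallest rise that passed was 1.17-fold. Without replicate 3 labelled 1,25D the count was 74, and without replicate 2 with both agents it was 77.

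**Figure D1:**
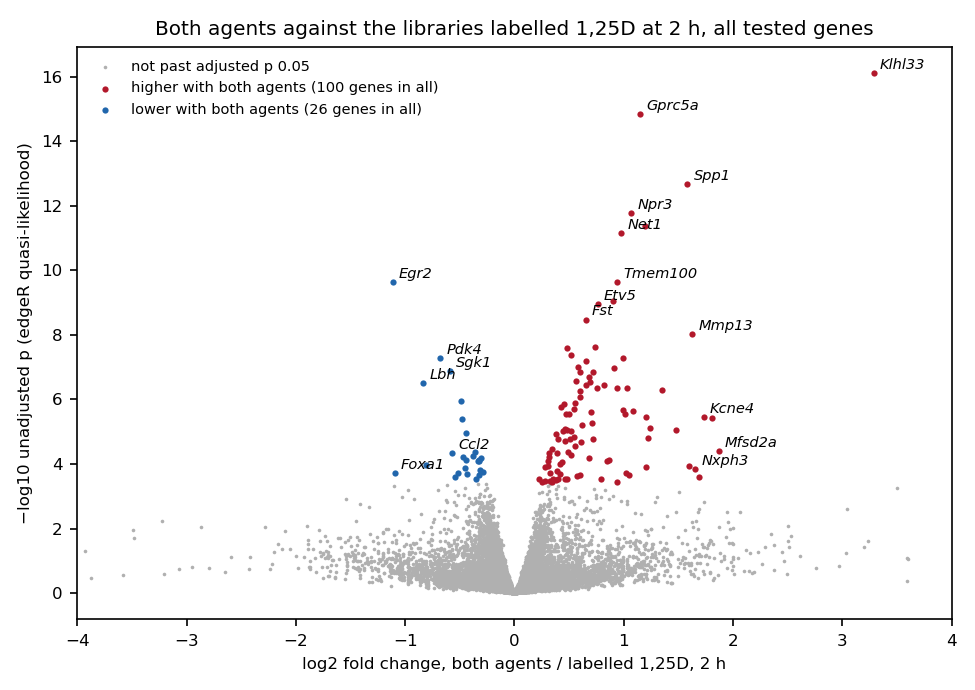
Log2 fold change of both agents over the libraries labelled 1,25D at 2 h (x axis) against minus log10 of the unadjusted edgeR quasi-likelihood p (y axis), 1 point per gene tested, red higher and blue lower at adjusted p 0.05. Klhl33 stands apart at 3.29, Egr2 leads the falls at -1.11, and 34 genes beyond 4 on the log2 scale, 1 of them past the threshold, are not drawn.

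Where the mean level reached 1 CPM, the largest rise belonged to Klhl33, a member of the kelch-like family, many of which are substrate adaptors of cullin 3 ubiquitin ligases. Its level was 22.6, 21.6 and 20.3 CPM with both agents, against 2.64, 2.11 and 1.84 CPM in the libraries labelled 1,25D. The groups did not overlap, and the log2 change was 3.29 ± 0.14 (standard error, as for every log2 change below; edgeR adjusted p = 1.28e-12). Transcripts Klhl33-204 and Klhl33-203, the second a retained-intron form, carried 45.6% and 44.4% of its estimated counts with both agents, and 57.9% and 40.5% in the libraries labelled 1,25D. The coding form Klhl33-201 averaged 69.7 ± 10.9 estimated counts with both agents and 0.0201 ± 0.0348 in the libraries labelled 1,25D (SD, n = 3 each), a split that rests on the authors' allocation of reads among overlapping transcripts.

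Spp1 encodes osteopontin, an acidic phosphoprotein of bone matrix. It was at 895, 965 and 980 CPM with both agents, against 295, 336 and 319 CPM labelled 1,25D. Each library with both agents held more than 2-fold the level of any library labelled 1,25D, and the log2 change was 1.58 ± 0.10 (edgeR adjusted p = 1.2e-09). Transcript Spp1-201 carried 88.2% of its estimated counts with both agents and 87.3% labelled 1,25D. Mmp13 encodes collagenase 3, which cleaves fibrillar collagen. Its level was 10.9, 12.1 and 17.8 CPM with both agents, against 3.95, 5.18 and 4.11 CPM labelled 1,25D, a log2 change of 1.62 ± 0.18 (edgeR adjusted p = 1.31e-05). The third library with both agents was the highest, and the lowest of that group still lay above every library labelled 1,25D.

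The promoters of the 3 genes are shown because they head the rises among matrix and vitamin D genes and the largest rise at that level. Each window runs from 250 bases before to 50 bases after a RefSeq start site, 5′ to 3′ on the gene's strand, on build GRCm38.p6. The windows are chr14:50897434-50897733 (minus strand) for Klhl33, chr5:104434861-104435160 (plus strand) for Spp1 and chr9:7272264-7272563 (plus strand) for Mmp13. Capitals mark matches to the motifs searched.
Klhl33: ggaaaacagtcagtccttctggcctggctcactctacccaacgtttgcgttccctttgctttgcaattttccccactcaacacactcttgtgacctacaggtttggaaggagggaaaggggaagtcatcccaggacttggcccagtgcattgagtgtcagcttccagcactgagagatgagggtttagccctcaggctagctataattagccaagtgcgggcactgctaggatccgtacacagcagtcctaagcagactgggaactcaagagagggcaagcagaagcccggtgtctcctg
Spp1: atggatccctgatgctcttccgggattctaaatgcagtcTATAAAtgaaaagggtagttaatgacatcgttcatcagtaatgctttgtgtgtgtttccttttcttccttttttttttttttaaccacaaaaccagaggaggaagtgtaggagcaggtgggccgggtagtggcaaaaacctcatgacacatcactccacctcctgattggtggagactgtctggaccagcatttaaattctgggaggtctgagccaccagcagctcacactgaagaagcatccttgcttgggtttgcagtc
Mmp13: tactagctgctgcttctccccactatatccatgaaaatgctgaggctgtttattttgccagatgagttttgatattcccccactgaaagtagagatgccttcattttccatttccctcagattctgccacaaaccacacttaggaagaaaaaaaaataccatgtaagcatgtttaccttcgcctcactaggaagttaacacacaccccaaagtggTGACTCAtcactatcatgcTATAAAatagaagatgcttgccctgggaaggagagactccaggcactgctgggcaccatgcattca
The Mmp13 window held TGACTCA, a match to the AP-1 site TGANTCA, at -35 to -29, and TATAAA at -16 to -11, counting the start site as 0. The Spp1 window held TATAAA at -211 to -206. The Klhl33 window held none of the 6 motifs searched on both strands, which were TGANTCA, the cAMP response element TGACGTCA, the CArG box, the EGR site GCGTGGGCG, TATAAA and the vitamin D response element as a direct repeat with spacer 3. Of 32851 RefSeq windows of the same length, 7.81% held TGANTCA, 13.6% TATAAA, 2.02% the vitamin D repeat, 1.79% TGACGTCA, 1.63% a CArG box and 0.612% GCGTGGGCG. Among the 73 genes that rose and had a window, 9 held TGANTCA (12.3%), 12 TATAAA (16.4%), 3 the vitamin D repeat (4.11%), 1 TGACGTCA (1.37%), 1 a CArG box (1.37%) and 0 GCGTGGGCG. Of all 27025 genes with a window, 8.97% held TGANTCA, 15.7% TATAAA, 2.34% the vitamin D repeat, 2.03% TGACGTCA, 1.81% a CArG box and 0.707% GCGTGGGCG. These matches are descriptions of letters in the windows.

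A secreted growth factor and a matrix enzyme were among the other large rises. Pdgfb, a chain of platelet-derived growth factor, had 28.9, 26.9 and 26.3 CPM with both agents, against 12.5, 9.58 and 10.03 CPM labelled 1,25D. Its log2 change was 1.35 ± 0.19 (edgeR adjusted p = 0.000249), and the groups stood well apart. Loxl2, a lysyl oxidase that cross-links collagen, averaged 2.88 ± 0.306 CPM with both agents and 1.22 ± 0.292 CPM labelled 1,25D (SD, n = 3 each), a log2 change of 1.24 ± 0.21.

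Other single genes with large rises had varied roles. Mfsd2a, a transporter of lysophosphatidylcholine, had 2.40, 2.33 and 2.58 CPM with both agents, against 0.577, 0.744 and 0.675 CPM labelled 1,25D, a log2 change of 1.87 ± 0.36 (edgeR adjusted p = 0.00957). The groups did not overlap, but the call did not hold without replicate 1 or replicate 3 labelled 1,25D or with counts rebuilt from TPM. Gdpd5, a glycerophosphodiesterase, averaged 41.6 ± 3.66 CPM with both agents and 14.9 ± 2.07 CPM labelled 1,25D (SD, n = 3 each), a log2 change of 1.48 ± 0.25. Kcne4, an accessory subunit of potassium channels, changed by 1.73 ± 0.28, at low levels of 1.41 to 2.31 CPM with both agents and 0.496 to 0.583 CPM labelled 1,25D. Nxph3, a secreted ligand of neurexins, had 4.22, 4.21 and 3.86 CPM with both agents, against 1.15, 1.80 and 0.950 CPM labelled 1,25D. Its log2 change of 1.65 ± 0.36 passed the threshold (edgeR adjusted p = 0.0244), but not with counts rebuilt from TPM, without any 1 of the 3 libraries with both agents, or without replicate 1 or 3 labelled 1,25D.

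The transcription factor Foxf1, of the forkhead family, rose by 1.23 ± 0.22, the zinc finger gene Zfp469 by 1.21 ± 0.26 and Relt, a member of the tumour necrosis factor receptor family, by 1.20 ± 0.19 on the log2 scale. Sprr2a2, of a family of near-identical genes among which reads can be split, had 4.16, 3.72 and 1.35 CPM with both agents, against 0.941, 1.18 and 0.920 CPM labelled 1,25D. The third library with both agents lay close to the libraries labelled 1,25D, and the log2 change was 1.60 ± 0.34 (edgeR adjusted p = 0.02). Its call was lost without replicate 1 or 2 with both agents or any 1 of the 3 labelled 1,25D. The Zfp469 call was lost without replicate 1 or 2 with both agents or replicate 1 or 3 labelled 1,25D, and that of Foxf1 without replicate 3 labelled 1,25D.

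Several smaller rises are named after their values were seen. Gprc5a, an orphan receptor first found as induced by retinoic acid, averaged 277 ± 4.601 CPM with both agents and 125 ± 7.93 CPM labelled 1,25D (SD, n = 3 each), a log2 change of 1.15 ± 0.06. Net1, a guanine nucleotide exchange factor, rose by 0.98 ± 0.07, and Tmem100, a membrane protein of endothelium and neurons, by 0.94 ± 0.08. Vegfa rose by 0.85 ± 0.17 and Nrp1, which encodes the VEGF co-receptor neuropilin 1, by 0.68 ± 0.09. Egfr, the receptor of epidermal growth factor, rose by 0.32 ± 0.07, with means of 114 ± 5.17 CPM with both agents and 91.3 ± 5.84 CPM labelled 1,25D (SD, n = 3 each). The Vegfa call was lost without replicate 1 or 2 with both agents or any 1 of the 3 labelled 1,25D. That of Egfr was lost without replicate 2 or 3 with both agents, without replicate 2 or 3 labelled 1,25D, without the filter on low counts and with the compared groups only.

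**Figure D2:**
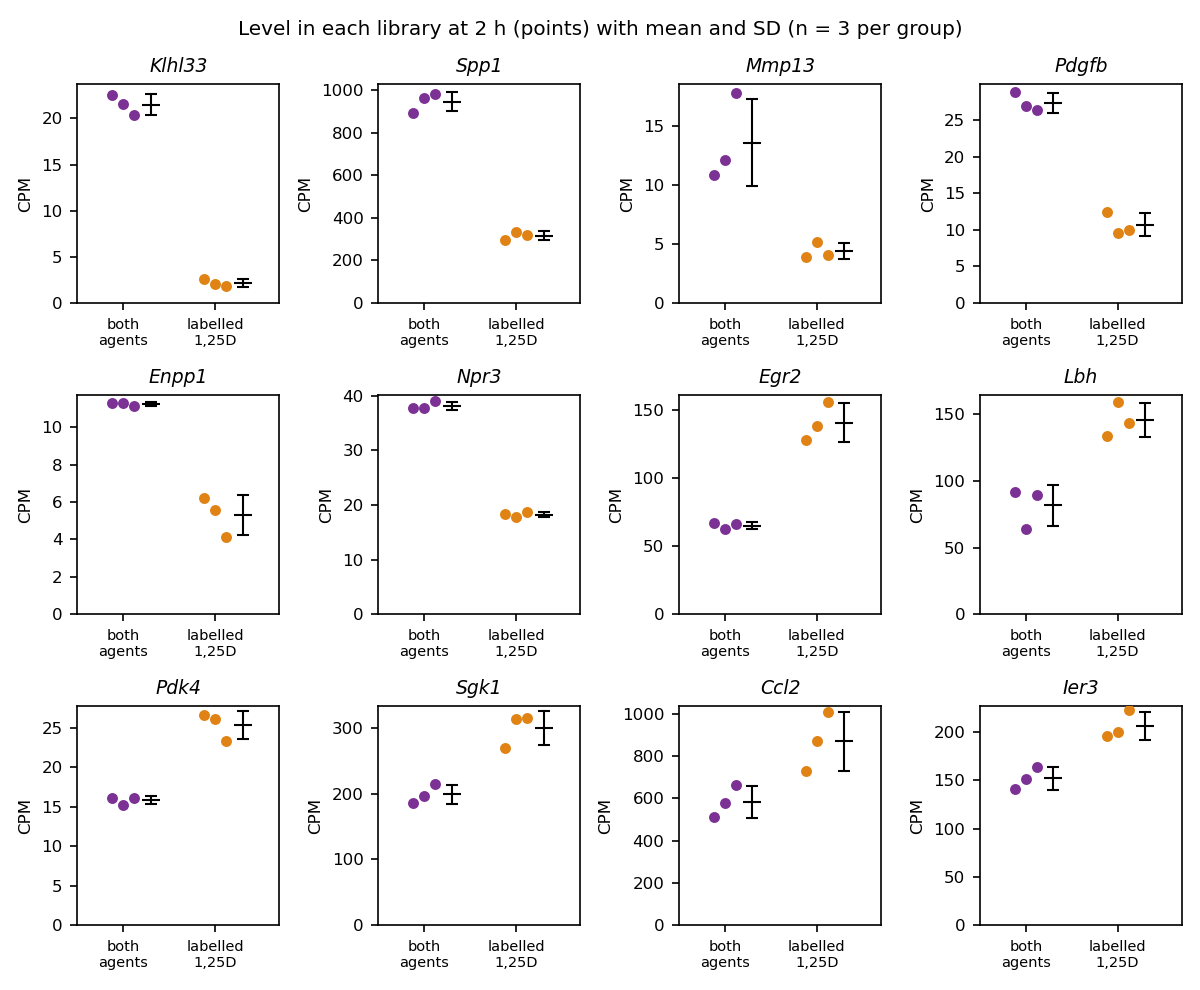
CPM (y axis) of 12 genes in each of the 3 libraries with both agents (left, purple) and the 3 labelled 1,25D (right, orange) at 2 h, with the mean and SD in black. Klhl33, Spp1, Mmp13, Pdgfb, Enpp1 and Npr3 are higher and Egr2, Lbh, Pdk4, Sgk1, Ccl2 and Ier3 lower with both agents, and no gene's groups overlap.

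The falls were led by Egr2, a zinc finger transcription factor of the immediate early class. It had 67.1, 62.4 and 66.0 CPM with both agents, against 128, 139 and 156 CPM labelled 1,25D, and fell by 1.11 on the log2 scale (standard error 0.10, edgeR adjusted p = 4.91e-07). The groups stood far apart, and all 3 libraries with both agents were nonetheless above the 17.1 to 18.6 CPM of vehicle at 2 h. Transcripts Egr2-206, Egr2-201 and Egr2-203 carried 37.8%, 33.7% and 25.6% of its estimated counts with both agents, and 40.5%, 34.4% and 20.6% labelled 1,25D. A RefSeq window at a start site of Egr2 is shown because it heads the falls, at chr10:67537619-67537918 (plus strand, GRCm38.p6), with the CArG box, the serum response factor motif, in capitals at -72 to -63.
Egr2: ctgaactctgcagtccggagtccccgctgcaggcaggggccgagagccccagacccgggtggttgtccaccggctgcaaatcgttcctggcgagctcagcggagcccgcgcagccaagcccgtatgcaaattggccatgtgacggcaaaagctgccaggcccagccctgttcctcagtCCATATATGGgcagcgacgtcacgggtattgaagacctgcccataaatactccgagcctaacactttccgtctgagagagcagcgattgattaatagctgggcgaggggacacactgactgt
It is 1 of 5 RefSeq windows of Egr2, and was picked for that match. Among the 21 genes that fell and had a window, Egr2 was the 1 with a CArG box (4.76%), against 1.81% of all genes with a window. Of the same 21 genes, 1 held GCGTGGGCG (4.76%), 4 TATAAA (19.05%), 2 TGANTCA (9.52%), and 0 TGACGTCA or the vitamin D repeat. Of all genes with a window, 0.707% held GCGTGGGCG, 15.7% TATAAA and 8.97% TGANTCA. A share that rests on 1 gene shows no excess.

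Metabolic and signalling genes that fell included Pdk4, the kinase that shuts pyruvate dehydrogenase, with 16.1, 15.2 and 16.1 CPM with both agents, against 26.6, 26.1 and 23.3 CPM labelled 1,25D. Its log2 change was -0.68 ± 0.08 (edgeR adjusted p = 4.99e-05), and its groups did not overlap, but the call was lost with counts rebuilt from TPM. Sgk1, a kinase induced by serum and glucocorticoids, had 186, 197 and 215 CPM with both agents, against 270, 314 and 316 CPM labelled 1,25D, a log2 change of -0.59 ± 0.08 (edgeR adjusted p = 0.000103). Lbh, a transcription cofactor, had 91.8, 64.2 and 89.5 CPM with both agents, against 134, 160 and 144 CPM labelled 1,25D, a log2 change of -0.83 ± 0.11 (edgeR adjusted p = 0.000189). Both genes were lower in every library with both agents. Ccl2, the chemokine that draws monocytes, had 513, 579 and 663 CPM with both agents, against 729, 873 and 1010 CPM labelled 1,25D. The highest library with both agents lay below the lowest labelled 1,25D, and the log2 change was -0.57 ± 0.11 (edgeR adjusted p = 0.0102). The Ccl2 call was lost without replicate 1 or 2 with both agents or replicate 3 labelled 1,25D.

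The other falls were smaller or rested on low counts. Foxa1, a forkhead pioneer factor, had 0.789, 0.706 and 0.754 CPM with both agents, against 1.55, 1.83 and 1.44 CPM labelled 1,25D. Its log2 change was -1.10 ± 0.24 (edgeR adjusted p = 0.0307), and its call was lost when any 1 of the 6 libraries was left out. Pcdh18, a protocadherin, changed by -0.49 ± 0.07, Ctnnbip1, an inhibitor of beta-catenin, by -0.48 ± 0.08, and Mylip, the ligase that degrades the LDL receptor, by -0.44 ± 0.08. The Pcdh18 call was lost with counts rebuilt from TPM. Tent5a, a poly(A) polymerase whose loss makes bone fragile in mice and humans, changed by -0.52 ± 0.11. Tnfaip8l1, Eva1c and the Krüppel-like repressor Klf11 changed by -0.54 ± 0.12, -0.47 ± 0.09 and -0.45 ± 0.10. The calls of Tent5a, Tnfaip8l1, Eva1c and Klf11 were each lost without replicate 1 with both agents, and without some other single libraries, and those of Tent5a, Tnfaip8l1 and Klf11 also with counts rebuilt from TPM.

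The genes reported whatever their values, Fgf23, Cyp24a1, Il12a, Vdr and Lpar1, did not pass the test at 2 h or had too few counts for it. Fgf23 had 1, 0 and 0 counts with both agents and 0 in each library labelled 1,25D, so no fold can be given. Cyp24a1 had 1, 2 and 3 counts with both agents, against 0, 0 and 1 labelled 1,25D, a ratio of 6.02 with a 95% exact interval of 0.730 to 277 that covers counting error only. Il12a, the p35 chain of interleukin 12, had 16, 26 and 19 counts with both agents, against 11, 14 and 9 labelled 1,25D. The libraries did not overlap, but the log2 change of 0.84 ± 0.39 did not pass (edgeR adjusted p = 0.531). Vdr, the vitamin D receptor gene, averaged 195 ± 10.6 CPM with both agents and 180 ± 9.08 CPM labelled 1,25D (SD, n = 3 each), a log2 change of 0.12 ± 0.08 (edgeR adjusted p = 0.732). Lpar1, an LPA receptor gene, averaged 73.5 ± 6.63 CPM with both agents and 82.9 ± 1.14 CPM labelled 1,25D (SD, n = 3 each), a log2 change of -0.17 ± 0.09 (edgeR adjusted p = 0.587), and the log2 change was 0.0426, of the opposite sign and not past the test, with counts rebuilt from TPM.

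Gene lists chosen for bone, vitamin D, LPA and the early response held 549 genes in 30 lists, of which 471 were tested, 14 rose and 6 fell. The lists were chosen with earlier results of these data known, so their counts and medians are descriptions and not independent support. Of 18 vitamin D receptor targets tested, 5 rose and 0 fell, where 0.609% of all genes rose, and the list's median log2 change was 0.36. The 5 were Spp1, Mmp13, Enpp1, Enpp3 and Slc37a2. Enpp1, which makes the mineralisation inhibitor pyrophosphate, had 11.3, 11.3 and 11.2 CPM with both agents, against 6.19, 5.58 and 4.14 CPM labelled 1,25D, a log2 change of 1.08 ± 0.17 (edgeR adjusted p = 0.000918). Its relative Enpp3 had 11.05, 11.2 and 9.71 CPM with both agents, against 5.40, 6.67 and 6.01 CPM labelled 1,25D, a log2 change of 0.82 ± 0.11 (edgeR adjusted p = 0.000204). Slc37a2, a sugar phosphate exchanger, had 19.4, 19.5 and 21.3 CPM with both agents, against 11.8, 12.6 and 12.1 CPM labelled 1,25D, a log2 change of 0.72 ± 0.09. All 3 genes were apart in every library. Targets not past the test ranged from -0.46 for Cyp27b1 to 2.23 for Cyp24a1, and included Tnfsf11, which encodes RANKL, at 0.33, and Bglap, osteocalcin, at 0.43.

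Immediate early genes had 0 rises and 2 falls among 28 tested, where 0.158% of all genes fell, and a median log2 change of -0.12. The falls were Egr2 and Ier3, a stress-induced early gene with 141, 151 and 164 CPM with both agents, against 196, 201 and 222 CPM labelled 1,25D, and a log2 change of -0.44 ± 0.09 (edgeR adjusted p = 0.015). The Ier3 call was lost without replicate 1 or 2 with both agents or replicate 3 labelled 1,25D. Members that did not pass lay on both sides of 0. At an unadjusted p of 0.05, where 8.95% of all genes passed in either direction, 9 were lower and 3 higher. Among members named after their values were seen, Egr1 was at -0.63, Nr4a1 at -0.56, Fos at -0.53 and Ier2 at -0.51, while Atf3 was at 0.37, Klf10 at 0.31, Jun at 0.30 and Fosb at 0.38. The 5 tested EGR factors and NAB corepressors had a median of -0.47, with Egr2 the only one past the test and Egr3 at -0.47.

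Of 24 ERK feedback genes and targets, 2 rose and 0 fell, where 0.609% and 0.158% of all genes did, and the median was -0.03. Etv5, an ETS transcription factor, had 35.6, 36.4 and 37.98 CPM with both agents, against 21.5, 21.6 and 21.7 CPM labelled 1,25D, a log2 change of 0.76 ± 0.07 (edgeR adjusted p = 1.83e-06). Dusp6, the phosphatase that inactivates ERK, had 177, 200 and 194 CPM with both agents, against 131, 133 and 123 CPM labelled 1,25D, a log2 change of 0.56 ± 0.08 (edgeR adjusted p = 0.000182). Neither gene's groups overlapped. Spry1, another feedback inhibitor, was at -0.98 ± 0.24 and did not pass (edgeR adjusted p = 0.0725), nor did Spry2 at -0.32 or Spry4 at -0.34. The 24 actin genes of SRF and MRTF had 0 rises and 0 falls, with a median of 0.08. The YAP and TEAD list had 1 fall among 21, Dlc1, a GTPase activating protein, at -0.33 ± 0.07, a call lost when any 1 of the 6 libraries was left out.

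NF-kB targets and chemokines had 1 rise and 2 falls among 26 tested, where 0.609% of all genes rose and 0.158% fell, with a median of -0.14. Nfkbia, which encodes the inhibitor IkB-alpha, had 256, 285 and 308 CPM with both agents, against 223, 218 and 211 CPM labelled 1,25D, a log2 change of 0.38 ± 0.09 (edgeR adjusted p = 0.0416). The falls were Ccl2 and Tnip1, which encodes an A20-binding inhibitor of NF-kB, at -0.33 ± 0.07 (edgeR adjusted p = 0.0155). The Nfkbia and Tnip1 calls were each lost without replicate 2 or 3 with both agents, without replicate 2 or 3 labelled 1,25D, and with counts rebuilt from TPM, and that of Nfkbia also without replicate 1 labelled 1,25D. Il6 was at -0.97 and Cxcl1 at -0.32, and neither passed. Of 11 genes of RANKL and osteoclast support, Ccl2 was the only one past the test.

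Bone lists had single genes past the test, where 0.767% of all genes passed in either direction. Of 15 osteocyte markers tested, 1 rose, Npr3, the clearance receptor of natriuretic peptides. It had 37.7, 37.8 and 39.0 CPM with both agents, against 18.3, 17.7 and 18.7 CPM labelled 1,25D, a log2 change of 1.07 ± 0.07 (edgeR adjusted p = 6.92e-09), and its libraries varied little within either group. Of 20 osteoblast and matrix genes, Spp1 was the only one past the test, with Col1a1 at 0.01 and Alpl at 0.49. Mmp13 was the only one of 20 matrix metalloproteinases and inhibitors. Of 11 activin pathway genes, 1 rose, Fst, the activin-binding protein follistatin, with 86.4, 84.6 and 89.5 CPM with both agents, against 57.1, 58.5 and 50.2 CPM labelled 1,25D and a log2 change of 0.65 ± 0.07 (edgeR adjusted p = 5.07e-06). Enpp1 was the only one of 13 genes of FGF23 production and phosphate handling.

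The cholesterol, glycolysis and heat shock lists had 1 or 2 genes past the test each, beside the 0.609% of all genes that rose and 0.158% that fell. Of 23 cholesterol genes, 2 rose, among them Hsd17b7, a ketoreductase of the pathway, by 0.31 ± 0.07. Of 21 glycolysis genes, Pfkfb3, which makes the activator fructose 2,6-bisphosphate, rose by 0.52 ± 0.09 and Pdk4 fell. Of 13 heat shock genes, Hsph1 rose by 0.42 ± 0.09, and the list's median was 0.16. The Hsph1 and Hsd17b7 calls were both lost without replicate 2 or 3 with both agents or replicate 3 labelled 1,25D, the first also without replicate 1 and the second also without replicate 2 labelled 1,25D. The lists for LPA receptors and metabolism (17 tested), IL-12 and IL-6 cytokines (19), Wnt (22), BMP (14), mitosis (24), DNA replication (24), the unfolded protein response (23), interferon (22), mitochondrially encoded genes (13) and the 5 other cell types had 0 members past the edgeR adjusted threshold in either direction.

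**Figure D3:**
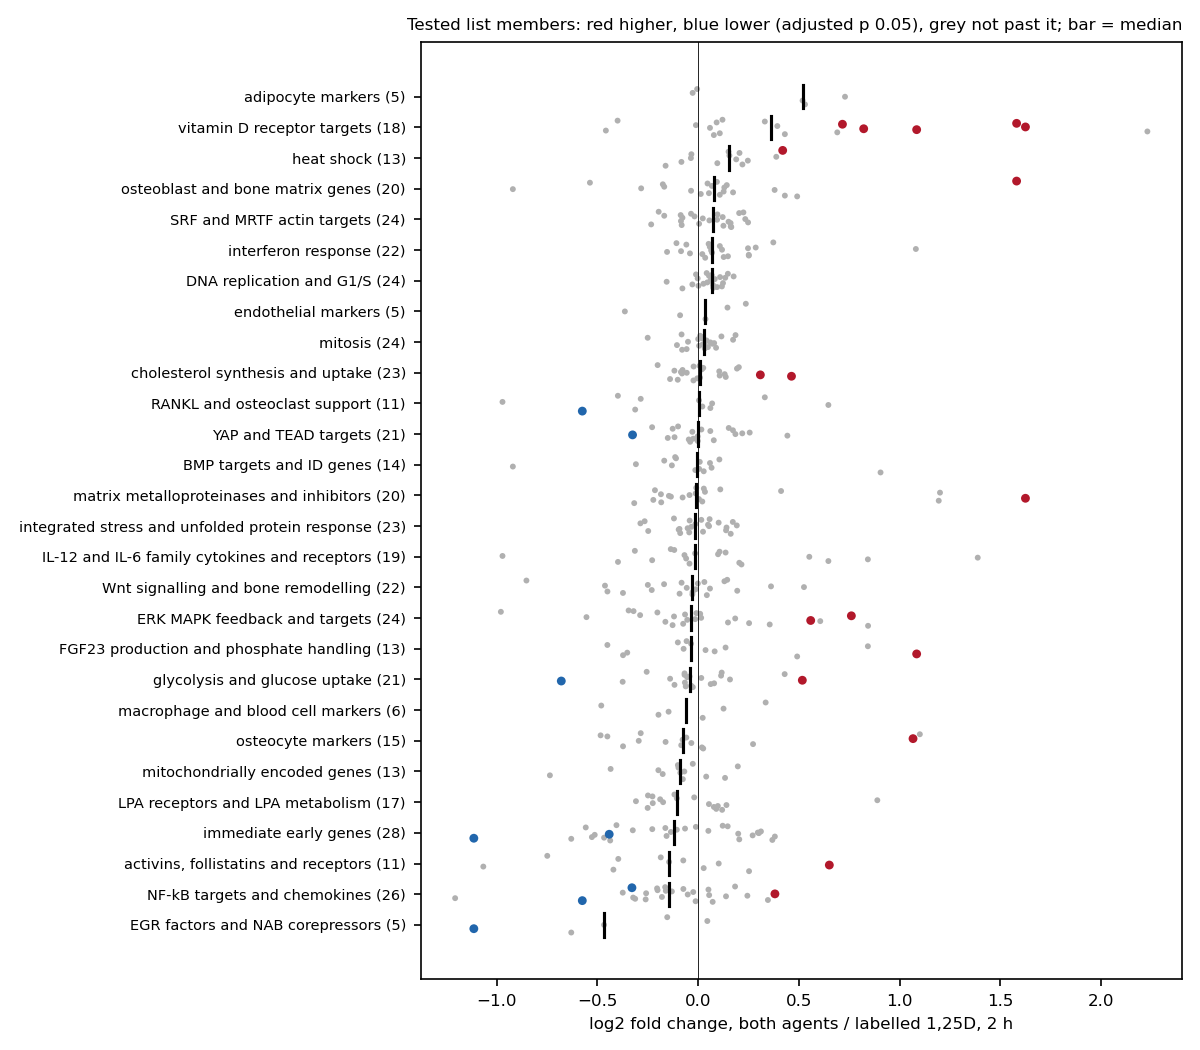
Log2 fold change of both agents over the libraries labelled 1,25D at 2 h (x axis) for every tested member of the 28 lists with at least 5 tested members (rows, number tested in brackets), red higher and blue lower at adjusted p 0.05, grey not past it, with the list median as a black bar. Vitamin D receptor targets have a median of 0.36 and 5 red members, and EGR factors and NAB corepressors a median of -0.47. The lists were chosen with earlier results of these data known.

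The same agent was also given alone, which allows its changes on top of the other agent to be set beside its changes over vehicle in libraries that the 2 comparisons do not share. Alone it raised 98 genes (0.597%) and lowered 31 (0.189%). Of the 100 genes that rose on top, 61 also rose alone, which is 61% of the first list and 62.2% of the second, and 95 had the same sign. Their median log2 change was 0.61 on top and 0.53 alone, against 0.0017 for all genes alone. Of the 26 genes that fell on top, 7 also fell alone, 26.9% of the first list and 22.6% of the second, and all 26 had the same sign. Of the 126 genes, 0 were past the threshold in the opposite direction alone. Without replicate 1 of vehicle 69 genes passed alone, without replicate 3 labelled LPA 71 and without replicate 2 labelled LPA 82, where 129 passed with all libraries. Klhl33 changed by 3.29 ± 0.14 on top and 2.39 ± 0.12 alone, and Spp1 by 1.58 ± 0.10 and 1.21 ± 0.10. Npr3 changed by 1.07 ± 0.07 on top and 0.87 ± 0.07 alone, and Egr2 by -1.11 ± 0.10 and -0.64 ± 0.10. For none of these genes did the difference between the log2 changes on top and alone pass its test (edgeR adjusted p = 0.135, 0.996, 0.996 and 0.939 in that order). In CPM, which was not tested, Spp1 changed by 630 ± 28.7 on top and 277 ± 19.7 alone, a difference of 353 ± 34.8 (standard errors). Egr2 changed by -75.7 ± 8.39 CPM on top and -6.33 ± 0.571 CPM alone, a difference of -69.4 ± 8.4 (standard errors). The CPM differences of Klhl33 and Npr3, -0.201 ± 0.859 and 2.12 ± 1.69, were within or close to their standard errors.

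Of the rises on top, 39 were not past the threshold alone. Loxl2 changed by 1.24 on top and 0.27 alone, Mfsd2a by 1.87 and 0.32, Pdgfb by 1.35 and 0.66, and Foxf1 by 1.23 and 0.87. A miss alone does not show that these genes differed between the settings. The difference of the 2 log2 changes was tested as an interaction, which 6 genes passed (0.0365%) with 714 at an unadjusted p of 0.05 (4.35%). Follistatin gene Fst changed less on top than alone, at 0.65 ± 0.07 and 1.27 ± 0.07, an interaction of -0.62 ± 0.10 (edgeR adjusted p = 0.0185). Tsc22d1, a leucine zipper protein, likewise changed less, at 0.47 ± 0.07 and 1.11 ± 0.08, an interaction of -0.64 ± 0.11 (edgeR adjusted p = 0.0207). In CPM the added amounts of Fst were 31.6 ± 2.97 on top and 26.3 ± 1.28 alone (standard errors), and those of Tsc22d1 139 ± 18.6 and 175 ± 13.8. The difference between the 2 added amounts was 5.22 ± 3.23 CPM for Fst and -36.6 ± 23.1 CPM for Tsc22d1 (standard errors). Both differences are close to their errors, so the CPM values set no order between on top and alone for either gene.

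The other interactions were of genes with few counts or with related sequences elsewhere, and how far their reads were shared was not measured. Sprr2a2 changed by 1.60 on top and -1.34 alone (interaction 2.94 ± 0.47, edgeR adjusted p = 0.0185), and the pseudogene Eif4a-ps4, which can share reads with its parent, by 0.72 and -0.36 (1.08 ± 0.18, edgeR adjusted p = 0.0207). Fcgbp and Lypd8 also passed, and are named after their values were seen. Fcgbp had 18, 30 and 2 counts with both agents and 0 in each library labelled 1,25D, and 1, 0 and 0 counts labelled LPA against 31, 11 and 13 with vehicle. Leaving out replicate 1 or 2 with both agents, any 1 labelled LPA, replicate 1 labelled 1,25D or replicate 1 of vehicle left 0 interactions past the threshold, and leaving out replicate 2 or 3 labelled 1,25D left 1.

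**Figure D4:**
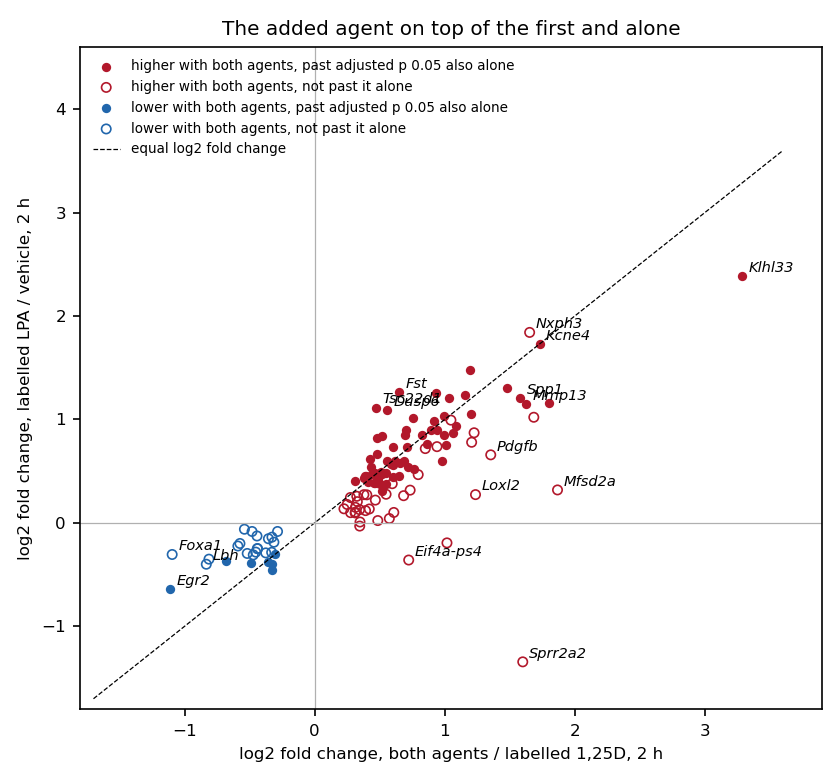
Log2 fold change of the agent labelled LPA on top of the agent labelled 1,25D (x axis) and alone over vehicle (y axis) at 2 h, for 125 of the 126 genes past the threshold on top (Fcgbp, at the far right, is not drawn). Filled points also pass alone, and the dashed line marks equal changes. Klhl33 lies at 3.29 and 2.39, Fst above the line and Sprr2a2 below 0 on the y axis.

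By 8 h the same comparison, in other libraries, had 943 genes higher (5.74%) and 564 lower (3.43%). Of the 100 genes that rose at 2 h, 88 were also higher at 8 h, 88% of the first list and 9.33% of the second, and 99 had the same sign. Their median log2 change was 0.61 at 2 h and 1.11 at 8 h, against 0.03 for all genes at 8 h. Of the 26 that fell at 2 h, 17 were also lower at 8 h, 65.4% of the first list and 3.01% of the second, and 24 had the same sign. The difference between the times was tested, and 287 genes had a higher log2 change at 8 h (1.75%) and 84 a lower one (0.511%). Among the 100 rises, 40 were larger at 8 h and 0 smaller. Among the 26 falls, Pcdh18 and Dlc1 were larger at 8 h, and the autophagy-related Calcoco1 changed by -0.36 at 2 h and 0.14 at 8 h. The 1507 genes past the threshold at 8 h were 897 without replicate 2 with both agents, and 975, 954 and 886 without replicate 1, 2 or 3 labelled 1,25D. The 371 differences between the times were 239 without replicate 2 with both agents at 2 h and 244 without replicate 3 labelled 1,25D at 2 h.

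Enpp3, Mmp13, Spp1 and Enpp1 had larger changes at 8 h than at 2 h by the test of the difference. Enpp3 had 95.2, 100 and 87.4 CPM with both agents at 8 h, against 6.73, 6.24 and 6.47 CPM labelled 1,25D, where at 2 h its groups were apart by less than 2-fold in their means. Its log2 change was 0.82 at 2 h and 3.86 at 8 h, a difference of 3.04. Mmp13 changed by 1.62 at 2 h and 3.33 at 8 h, Spp1 by 1.58 and 2.40, and Enpp1 by 1.08 and 2.46. Klhl33 changed by 3.29 at 2 h and 3.68 at 8 h, a difference of 0.40 ± 0.18 that did not pass (edgeR adjusted p = 0.357). Egr2 changed by -1.11 at 2 h and -1.39 at 8 h, a difference of -0.28 ± 0.14 that did not pass (edgeR adjusted p = 0.436), while its level was lower at 8 h in both groups, at 7.64 ± 0.689 CPM with both agents and 20.1 ± 3.02 CPM labelled 1,25D (SD, n = 3 each).

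For Fst the widening came with lower levels labelled 1,25D at 8 h. Fst averaged 86.8 ± 2.52 CPM at 2 h and 92.8 ± 4.56 CPM at 8 h with both agents, against 55.3 ± 4.48 CPM at 2 h and 18.01 ± 0.584 CPM at 8 h labelled 1,25D (SD, n = 3 each).

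**Figure D5:**
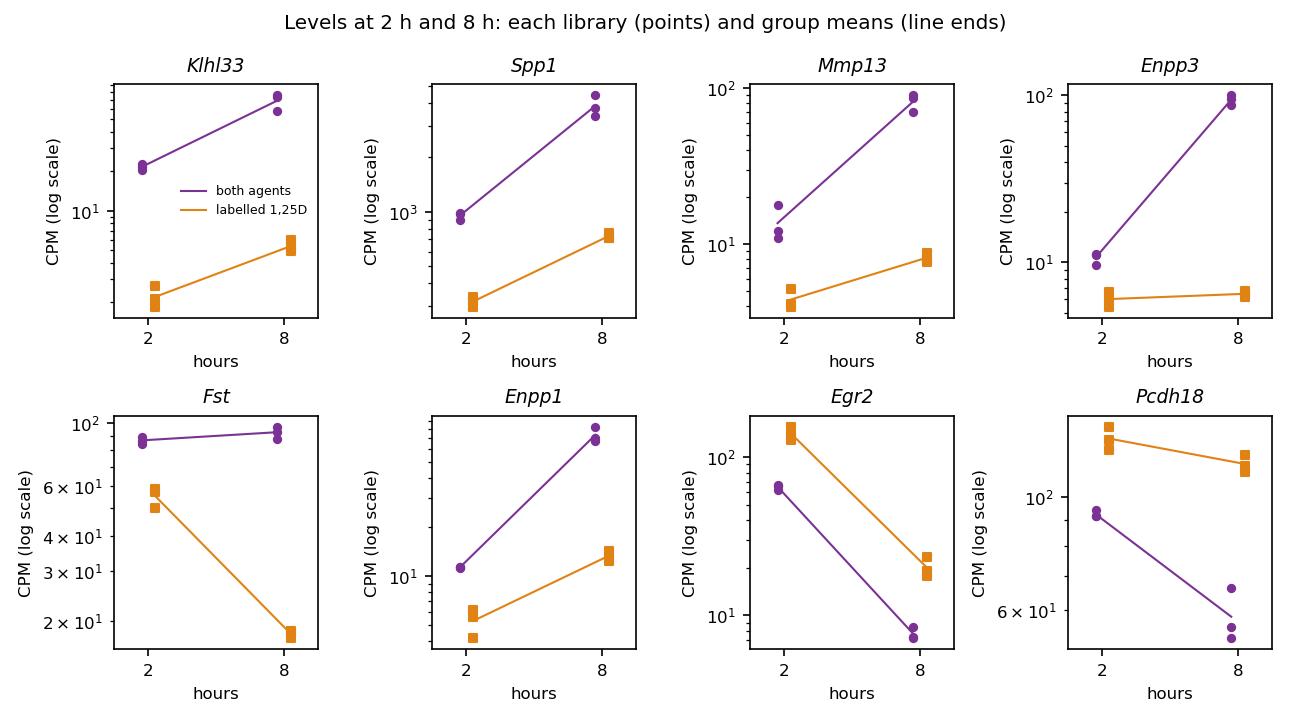
CPM on a log scale (y axis) at 2 h and 8 h (x axis) for 8 genes, with both agents (purple circles) and labelled 1,25D (orange squares). Points are single libraries and lines join the means of the 3 libraries at each time. Enpp3 reaches a mean of 94.3 CPM with both agents at 8 h, while Fst is at 18.01 CPM labelled 1,25D at 8 h.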

How the data were processed

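Per the labels' protocols, RNA of Ocy454 cells was extracted with an RNeasy kit and made into libraries with a DNBSEQ kit. The authors deposited estimated counts per Ensembl transcript, not scaled between libraries, and TPM, scaled for length and depth, per the file headers. Per the submitters' processing notes the build is mm39, while the quantifier was not given in the sources used here. Estimated counts were summed per gene with GENCODE M21, used for names only, and rounded. It matched 99.5 to 99.6% of the counts of the 6 libraries. Libraries differed within groups beyond sampling noise (chi-square over its degrees of freedom 14.2 to 24.1, 6 pairs), so all were kept.

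The test was edgeR 4.0.16 in R 4.3.3 (quasi-likelihood, robust, TMM, minimum count 10, 16424 of 49172 genes), fitted to all 8 groups without covariates, with 16 residual degrees of freedom. Adjusted p-values cover all genes tested. CPM values use TMM-scaled totals, about 33 M counts each. Scripts were tested on simulated data.

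Groups follow the titles. Named genes were Fgf23, Il12a, Cyp24a1, Vdr and Lpar1, the 14 largest rises and falls with a mean of at least 1 CPM and no overlap, 5 each way in the other comparisons, and up to 3 each way per list. Gene models without names were passed over, and some genes that the rule picks are not reported here. The comparison, members and lists were chosen with earlier results of these data known. Alternatives were DESeq2 1.42.0, median-of-ratios scaling, no filter, counts from length-scaled TPM, the compared groups alone, a replicate block, a covariate for the main axis of variation within groups, and leaving out each library.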

Additional observations from a re-analysis of the deposited data

Results flagged for a closer look

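The change with both agents over the libraries labelled 1,25D differed from the change of the same agent alone in 6 genes by the test of the interaction. Of these, Sprr2a2 (2.94) and Eif4a-ps4 (1.08) had the higher log2 change on top, and Fst (-0.62) and Tsc22d1 (-0.64) the lower.

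The change differed between 8 h and 2 h in 371 genes by the test of that difference. Among named genes the log2 change was higher at 8 h than at 2 h for Inmt, a methyltransferase (by 5.15), Cbs, cystathionine beta-synthase (4.12), the keratin gene Krt17 (3.68), Enpp3 (3.04), Elfn1 (2.66), Fst (1.71), Mmp13 (1.7), Vdr (1.51), Enpp1 (1.38), Npr3 (1.28), Dusp6 (0.87), Spp1 (0.82) and Hsd17b7 (0.39). It was lower at 8 h for Kif26b (-2.06), the Wnt ligand gene Wnt11 (-2.0), the calcium channel gene Cacna1g (-1.79), Tnfrsf11b, which encodes the RANKL decoy osteoprotegerin (-1.72), Trabd2b (-1.71), Pcdh18 (-0.50) and Dlc1 (-0.41). Inmt averaged 1.27 ± 0.443 CPM at 2 h and 29.6 ± 2.88 CPM at 8 h with both agents, against 0.624 ± 0.338 CPM at 2 h and 0.406 ± 0.101 CPM at 8 h labelled 1,25D (SD, n = 3 each).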

How the results depend on the processing

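For both agents against the libraries labelled 1,25D at 2 h, 57 of the 126 genes (52 higher, 5 lower) passed under all 13 alternatives, Klhl33, Spp1, Mmp13, Egr2, Lbh and Sgk1 among them. The covariate for the main axis within groups was computed from the same libraries' deviations from their group means. All 126 genes passed with it, so that alternative removed none and is no check on the 57. The count was 202 with DESeq2 (138 higher, 64 lower), 258 without the filter (185 and 73), 640 with the covariate (368 and 272), and 74 to 107 with 1 library left out. For the agent labelled LPA alone the counts were 293, 373, 2559 and 69 to 96. For the interaction they were 88 without the filter, 38 with the covariate, 1 with the compared groups only and 0 to 7 with 1 library left out. At 8 h they were 807 with the compared groups only, 2386 without the filter (880 higher, 1506 lower), 4935 with the covariate and 886 to 1936 with 1 library left out. For the difference between times they were 221 with counts from length-scaled TPM, 725, 2448 and 239 to 384. Lpar1 at 2 h changed sign, to 0.0426, with counts from length-scaled TPM. The causes of these shifts were not tested.

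The replicate number as a block gave 112 genes (88 higher, 24 lower) at 2 h, 116 alone, 5 for the interaction, 1389 at 8 h and 325 for the difference between times. Same-numbered libraries of the 2 groups deviated together with correlations of 0.0131 to 0.0591 (mean 0.0380). Differently numbered ones had correlations of -0.0744 to 0.0383 (mean -0.0191). The same-numbered values were thus higher on average, though small, and the main test did not take the numbers as pairs. Genes with few counts, Fgf23, Cyp24a1 and Il12a at 2 h, are limited by depth.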
